A study of Mus musculus with 9 samples.

Results

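The genes described here are 10 components and direct targets of the circadian clock: Dbp, Tef, Per1, Per2, Per3, Nr1d1, Nr1d2, Ciart, Arntl (also called Bmal1) and Npas2. They were followed in scraped mucosa of the mouse small intestine, along 3 segments and across 3 high-fat diets. Each was taken by name from the probe sets annotated to that gene symbol alone, and where a gene had several, the brightest one stood for it, chosen by its mean log2(signal + 16) over the 9 arrays. That mean brightness is the measured value on which the rule rests, and it is no finding. The 10 genes are among 18193 genes on the arrays, have 23 probe sets in all, and all 10 passed the filter on low signal.

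The mice were male C57BL/6J, an inbred laboratory strain, 9 weeks old when the diets began, and fed for 2 weeks on a diet high in fat. The fat of the HF-PO diet was palm oil, with the lowest P/S value in the labels. That of HF-OO was olive oil, and that of HF-SO was safflower oil, with the highest P/S value. Each small intestine was cut into equal parts named SI1 at the proximal end, SI2 in the middle and SI3 at the distal end, and RNA of scraped mucosa from 6 mice per diet was pooled and hybridised to 1 Affymetrix array per part. All 9 groups are thus high-fat fed, and low-fat arrays were not analysed here. A segment has 3 arrays, 1 per diet pool, and 1 set of 6 mice supplied all 3 segments of a diet. A diet has 1 pool, so a difference between diets and a difference between these sets of 6 mice cannot be told apart. The labels describe light-controlled housing and give no clock time for the collection of tissue.

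In mammals the clock is a loop of transcription. The BMAL1 protein, made from Arntl, pairs with CLOCK or its relative NPAS2 and binds E-box sequences near genes for its own repressors, the period (Per) and cryptochrome (Cry) proteins, and for the nuclear receptors REV-ERB alpha (Nr1d1) and REV-ERB beta (Nr1d2). The REV-ERB proteins repress Arntl and Npas2 through sequences called ROREs, so these genes peak at another phase of the day than Dbp, Nr1d1 or the Per genes. DBP and TEF, with HLF, are PAR-domain transcription factors that pass the rhythm on through D-box sequences, and CIART (CHRONO) is a repressor of BMAL1 complexes. In the rodent small intestine this clock runs in the epithelium, is set largely by meal times, and accompanies daily rhythms of nutrient transport and cell division.

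The binding letters of this loop were looked for in the promoters of the 10 genes, from 250 bases before to 50 bases after each annotated start, in RefSeq annotation of GRCm38.p6. Of the 10 genes, 9 had a window, 12 windows in all, and Per2 was the gene without one. The letters searched, on both strands, were CACGTG for the E-box, TTATGTAA or TTACGTAA for the D-box and TAGGTCA for the RORE. These motifs were settled on after the promoters had been seen. No 2 of the 3 motifs overlapped in the windows shown. An E-box was found in Ciart, Per1 and Tef, a D-box in Per3 and a RORE in Arntl. Of 32851 windows of all genes, 7.15% held the E-box, 1.06% a D-box and 2.61% the RORE. The match of letters describes the window, and no binding was measured here.

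The Ciart promoter is shown because it carries 3 E-boxes, a number reached in 29 of the 32851 windows (0.0883%), and the Per3 promoter because it carries 2 D-boxes, as 8 windows did (0.0244%). Shown are the 221 bases of the Ciart window and the 208 bases of the Per3 window that lie upstream of the gene's annotated span. Capitals mark the E-boxes in Ciart (chr3:95882258-95882478, minus strand) and the D-boxes in Per3 (chr4:151044708-151044915, minus strand).
Ciart: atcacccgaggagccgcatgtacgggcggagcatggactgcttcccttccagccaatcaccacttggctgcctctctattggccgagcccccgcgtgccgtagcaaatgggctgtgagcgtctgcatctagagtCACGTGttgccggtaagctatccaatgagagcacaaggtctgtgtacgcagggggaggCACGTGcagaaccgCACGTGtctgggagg
Per3: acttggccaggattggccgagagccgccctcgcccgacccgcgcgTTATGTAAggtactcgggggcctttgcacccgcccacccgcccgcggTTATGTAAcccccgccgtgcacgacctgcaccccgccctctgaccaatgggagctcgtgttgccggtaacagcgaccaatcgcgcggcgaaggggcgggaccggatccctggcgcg

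The stretches around the single E-boxes of Per1 (chr11:69098771-69098800, plus strand) and of the 2 annotated starts of Tef (chr15:81802519-81802578 and chr15:81811264-81811293, plus strand) precede those starts. The one at the first start of Tef is upstream of the gene, and the other stretches lie within the annotated spans of Per1 and Tef, which have further transcripts. They are given to compare the bases that flank each E-box, which is in capitals.
Per1: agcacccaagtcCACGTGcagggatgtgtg
Tef, first listed start: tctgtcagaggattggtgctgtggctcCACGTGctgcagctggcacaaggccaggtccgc
Tef, second listed start: cacctggcccagCACGTGtctacatcgttt

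In Arntl the RORE lies just downstream of an annotated start, within the gene, and is in capitals in the 30 bases around it (chr7:113207529-113207558, plus strand). It is shown because Arntl is the gene that REV-ERB proteins are known to repress.
Arntl: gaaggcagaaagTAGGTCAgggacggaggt

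**Figure D1:**
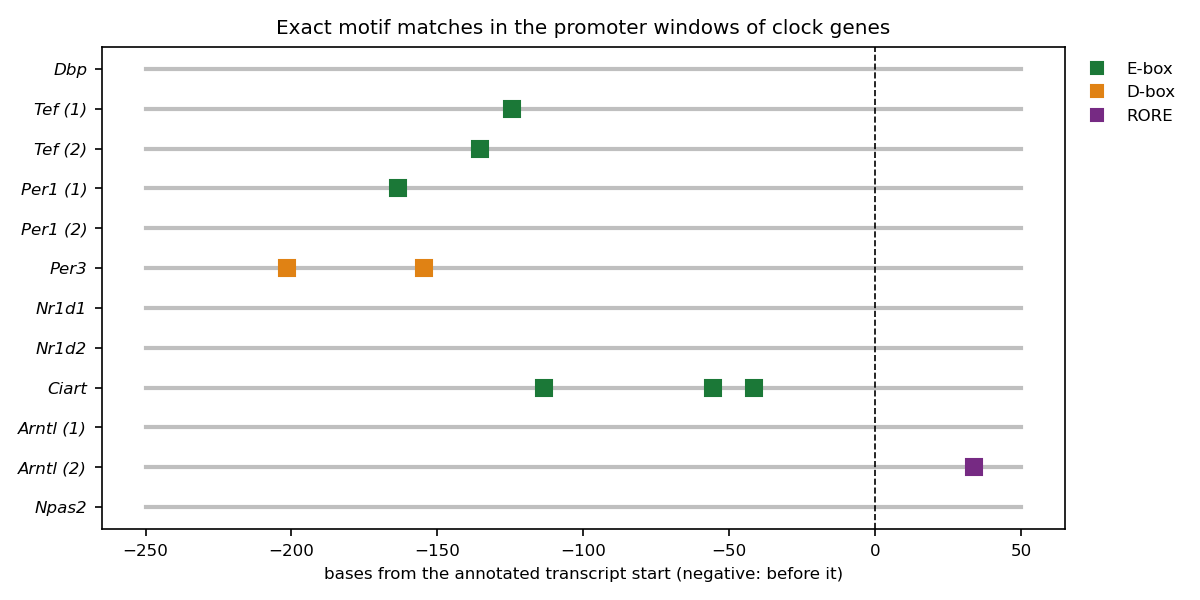
Positions of the motif letters in the 12 promoter windows of 9 clock genes, with distance from the annotated start in bases on the horizontal axis and 1 row per window. Ciart has 3 E-boxes, Per3 has 2 D-boxes and the RORE of Arntl lies after the start.

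The arrays carry the authors' scaling, with a trimmed mean signal of 500.0 on each, and their median signals ran between 94.6 and 106.2. As 9 arrays limit the precision, and the 3 pools of a segment differ in diet, the SD over pools holds differences between diets as well as between animals and arrays. Tissue markers went with the labels: the summed signal of 8 epithelial genes ran between 215839 and 229975 in SI3 and between 194376 and 232510 in SI1, all 4 proximal markers fell and all 3 distal markers rose in SI3 against SI1. Exocrine pancreas genes summed to between 297.3 and 483.7 in SI3 and between 29956 and 39000 in SI1, so pancreatic RNA was present in the SI1 arrays.

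Along the intestine, most of the clock genes of the repressor and output arms were lower in SI3 than in SI1, and Arntl was higher. By limma, with diet pool as a block and Benjamini-Hochberg adjustment over 22519 probe sets, 7 of the 10 fell in SI3 against SI1 (Dbp, Tef, Per1, Per3, Nr1d1, Nr1d2 and Ciart) and 1 rose (Arntl). Of all probe sets tested, 19.2% fell and 25.0% rose in this comparison, so a difference between these segments was common, 44.3% in either direction. The median change of the 10 genes was -0.47 in log2(signal + 16), beside 0.08 over all probe sets tested. Changes below are on that scale, which understates the change of dim genes, and signals are given in the order HF-PO, HF-OO, HF-SO.

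**Figure D2:**
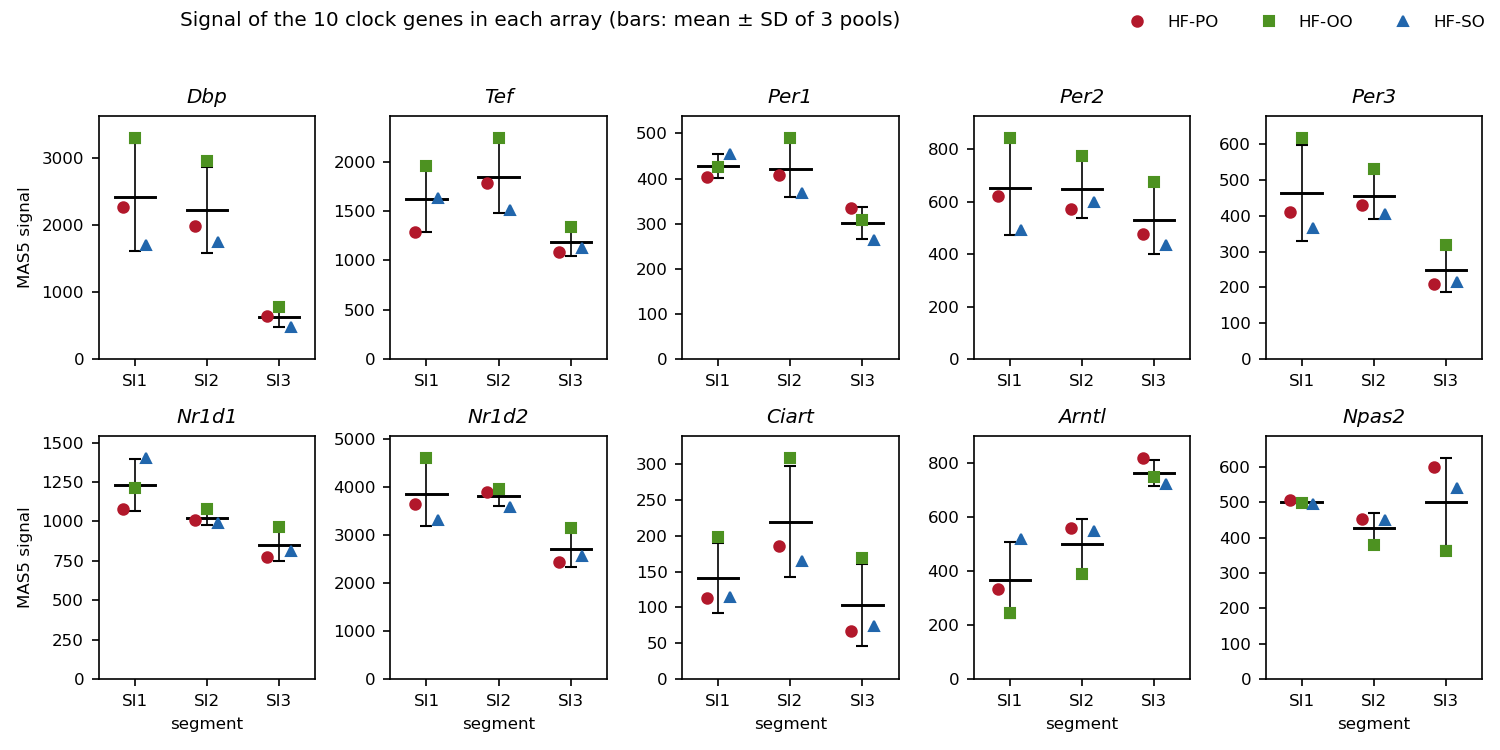
MAS5 signal of the 10 clock genes in each of the 9 arrays, by segment on the horizontal axis, with the diet pool as marker and the mean ± SD of the 3 pools as bars; each panel has its own axis starting at 0. Dbp is lower in all 3 pools of SI3 than in any pool of SI1, Arntl is higher, and in Dbp, Tef, Per2, Per3, Nr1d2 and Ciart the HF-OO marker is the highest of each segment.

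Dbp, the PAR-domain activator that serves as a standard read-out of clock phase, had the largest change of the 10 genes. Its signal was 644.4, 777.3 and 480.2 in SI3, against 2274.4, 3299.6 and 1709.5 in SI1. Every SI3 pool was below every SI1 pool, and the means, 634.0 ± 148.8 in SI3 and 2427.8 ± 806.1 in SI1 (SD, n = 3 each), differed 3.83-fold. Dbp fell by 1.89 (SE 0.10, limma adjusted p = 2.3e-05), with log2 changes of -1.79, -2.06 and -1.80 within the 3 pools. Tef, its close relative, changed less: it had 1086.4, 1341.0 and 1127.1 in SI3, against 1283.3, 1952.6 and 1628.6 in SI1. The HF-OO pool of SI3 was above the HF-PO pool of SI1, so the groups overlapped, although each pool was lower in SI3 than in SI1. Tef fell by 0.43 (SE 0.12, limma adjusted p = 0.0242), and without the block its adjusted p was 0.0804.

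Of the Per genes, which encode the repressors that close the loop, Per3 changed most. Per3 had 208.7, 317.8 and 216.1 in SI3, against 410.3, 615.7 and 365.2 in SI1. The groups did not overlap, the ratio of means was 1.87-fold in favour of SI1, and Per3 fell by 0.85 (SE 0.10, limma adjusted p = 0.000703). Per1, the period gene that glucocorticoids and other acute signals also induce, had 334.1, 308.3 and 262.9 in SI3, against 402.3, 425.8 and 454.5 in SI1. Its groups did not overlap either, and it fell by 0.49 (SE 0.13, limma adjusted p = 0.0181). Per2, with 477.6, 676.0 and 435.4 in SI3, against 621.4, 842.1 and 491.8 in SI1, overlapped between the segments. Its log2 difference was -0.28 (95% interval -0.53 to -0.04, SE 0.10, limma adjusted p = 0.0608), lower in SI3 in 3 of 3 pools.

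Both REV-ERB genes, whose products repress Arntl, fell in SI3 against SI1. Nr1d1 had 775.2, 966.2 and 812.8 in SI3, against 1078.7, 1209.3 and 1403.1 in SI1, and fell by 0.52 (SE 0.11, limma adjusted p = 0.00914). Nr1d2 had 2438.9, 3155.9 and 2558.2 in SI3, against 3648.0, 4607.8 and 3312.4 in SI1, and fell by 0.50 (SE 0.10, limma adjusted p = 0.00748). In neither gene did the segments overlap. Ciart, the repressor with 3 E-boxes in its promoter, had 66.8, 168.7 and 74.4 in SI3, against 113.0, 197.6 and 113.9 in SI1. Here the HF-OO pool of SI3 was above 2 pools of SI1. Within each pool Ciart was lower in SI3, and it fell by 0.46 (SE 0.11, limma adjusted p = 0.0156). Like that of Tef, this call was lost without the block (adjusted p = 0.306).

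Arntl, the activator at the centre of the loop, moved opposite to Dbp. It had 820.5, 749.0 and 725.0 in SI3, against 333.0, 244.6 and 521.4 in SI1. All SI3 pools were above all SI1 pools, and the ratio of means was 2.09-fold (764.8 ± 49.7 in SI3 and 366.3 ± 141.4 in SI1, SD, n = 3 each). Arntl rose by 1.09 (SE 0.19, limma adjusted p = 0.0041), by 1.26, 1.55 and 0.46 within the HF-PO, HF-OO and HF-SO pools. Npas2, the other activator among the 10 genes, had 601.7, 362.2 and 540.8 in SI3, against 508.2, 499.2 and 494.6 in SI1. Its SI1 pools lay close together and its SI3 pools lay on either side of them. The log2 difference was -0.03 (95% interval -0.35 to 0.30, SE 0.14, limma adjusted p = 0.883), and it was above 0 in 2 of the 3 pools.

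Without overlap between the 3 pools of each segment, 5 clock genes were lower in SI3 than in SI1 (23.5% of all probe sets tested) and 1 was higher (31.9%). Leaving out a pool changed the count of 8 called genes to 7 without HF-PO, 5 without HF-OO and 4 without HF-SO, and testing all probe sets with no filter on low signal gave 4. Dbp, Per3 and Arntl were called under each of these settings, and the calls of Tef, Per1, Nr1d1, Nr1d2 and Ciart each ended under at least 1 of them. In pooled bulk tissue, fewer cells of a type and less RNA per cell cannot be told apart.

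Between SI2 and SI1 most of the clock genes did not pass the test. Of the 10 genes, 1 rose and 0 fell in SI2 against SI1 (limma adjusted p under 0.05), where 8.07% of all probe sets rose and 6.92% fell, 15.0% together. The riser was Ciart, with 185.6, 308.6 and 164.9 in SI2, against 113.0, 197.6 and 113.9 in SI1. It rose by 0.58 (SE 0.11, limma adjusted p = 0.0191), by 0.64, 0.60 and 0.48 within the pools, while the groups overlapped. This call did not survive the loss of any 1 pool (limma adjusted p between 0.0833 and 0.102) or of the block (adjusted p = 0.284). Dbp had 1988.2, 2957.0 and 1744.2 in SI2, a log2 difference from SI1 of -0.11 (limma adjusted p = 0.499). Arntl had 560.0, 389.7 and 550.4 in SI2, each above its own pool in SI1, with a difference of 0.48 (SE 0.19, limma adjusted p = 0.143). The other 7 genes had limma adjusted p-values between 0.175 and 0.993 in this comparison. Among them, Nr1d1 (-0.25) and Npas2 (-0.22) were lower in SI2 than in SI1 in 3 of 3 pools. Their mean signals in SI2 were 1842.9 for Tef, 421.5 for Per1, 649.1 for Per2, 454.6 for Per3, 1024.6 for Nr1d1, 3811.1 for Nr1d2 and 427.9 for Npas2.

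More of the clock genes differed between SI3 and SI2. In SI3 against SI2, 6 clock genes fell and 0 rose, where 10.8% of all probe sets tested fell and 10.4% rose, 21.3% together (limma). Dbp fell by 1.78 (SE 0.10, limma adjusted p = 0.000168). Ciart, which was highest in SI2, fell by 1.03 (SE 0.11, limma adjusted p = 0.0014, and 0.0591 without the block). Per3 fell by 0.85 (limma adjusted p = 0.00188). Tef fell by 0.62 (limma adjusted p = 0.0132), Nr1d2 by 0.49 (adjusted p = 0.0166) and Per1 by 0.46 (adjusted p = 0.0409). Arntl was higher by 0.61 in SI3 than in SI2 without passing the test (limma adjusted p = 0.0651), and Per2 (-0.30), Nr1d1 (-0.27) and Npas2 (0.20) did not pass either. Leaving out the HF-PO or the HF-OO pool left 3 genes called, as did testing with no filter. The calls of Nr1d2 and Per1 were lost without any 1 of the pools (limma adjusted p between 0.0688 and 0.107 for Nr1d2 and between 0.0864 and 0.238 for Per1), and that of Tef without HF-PO (adjusted p = 0.0576) or HF-OO (adjusted p = 0.13). A limma F test over all 3 segments called 8 of the 10 genes, beside 40.7% of all probe sets, with Dbp (adjusted p = 4.8e-05), Per3 (adjusted p = 0.0011) and Ciart (adjusted p = 0.00147) lowest.

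The arrays measured 7 of the genes with further probe sets, of which 10 were tested and 3 fell under the filter on low signal. In SI3 against SI1, 8 of the 10 went the same way as the brightest probe set of their gene and 3 were called by limma. The second probe set of Dbp fell by 1.78 (adjusted p = 7.56e-05), a further one of Per3 by 0.47 (limma adjusted p = 0.021) and one of Tef by 0.46 (adjusted p = 0.0188). The second probe set of Arntl, with a log2 difference of 0.28 (limma adjusted p = 0.318), and that of Nr1d2, with -0.18 (adjusted p = 0.398), did not pass where the brightest one had. Of the remaining probe sets of Per3, 1 went the same way, with -0.12 (limma adjusted p = 0.414), and 1 the other way, with 0.26 (adjusted p = 0.276). The rise of Arntl and the fall of Nr1d2 thus rest on 1 probe set each, and Per1, Nr1d1 and Ciart had a single one. In SI2 against SI1, limma called 0 of the 10 further probe sets. Their log2 differences lay between -0.19 (Per2) and 0.51 (Nr1d2, limma adjusted p = 0.0712).

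Other genes of the loop were split in direction. Of 11 further loop genes, 10 had a probe set and 7 were tested, of which 2 rose, 2 fell and 3 did not pass in SI3 against SI1 (limma), with a median of 0.12. Hlf, the third PAR-domain factor beside Dbp and Tef, had 82.7, 64.6 and 63.3 in SI3, against 338.4, 541.6 and 291.0 in SI1. It fell by 2.20 (SE 0.19, limma adjusted p = 0.00017). Bhlhe40 (DEC1), a repressor at E-boxes, fell by 0.62 (limma adjusted p = 0.00149). Nfil3 (E4BP4), which opposes the PAR-domain factors at D-boxes, had 483.8, 228.2 and 205.1 in SI3, against 159.8, 121.2 and 109.0 in SI1, and rose by 1.05 (SE 0.22, limma adjusted p = 0.00725). Cry2, a partner of the PER proteins, rose by 0.80 (limma adjusted p = 0.00879) and was already higher by 1.08 in SI2 than in SI1 (adjusted p = 0.00993). Clock (0.12), Cry1 (0.25) and Rora (-0.19), which encodes an activator at ROREs, did not pass (limma adjusted p between 0.264 and 0.306). Arntl2, Bhlhe41 and Rorb were under the filter on low signal.

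**Figure D3:**
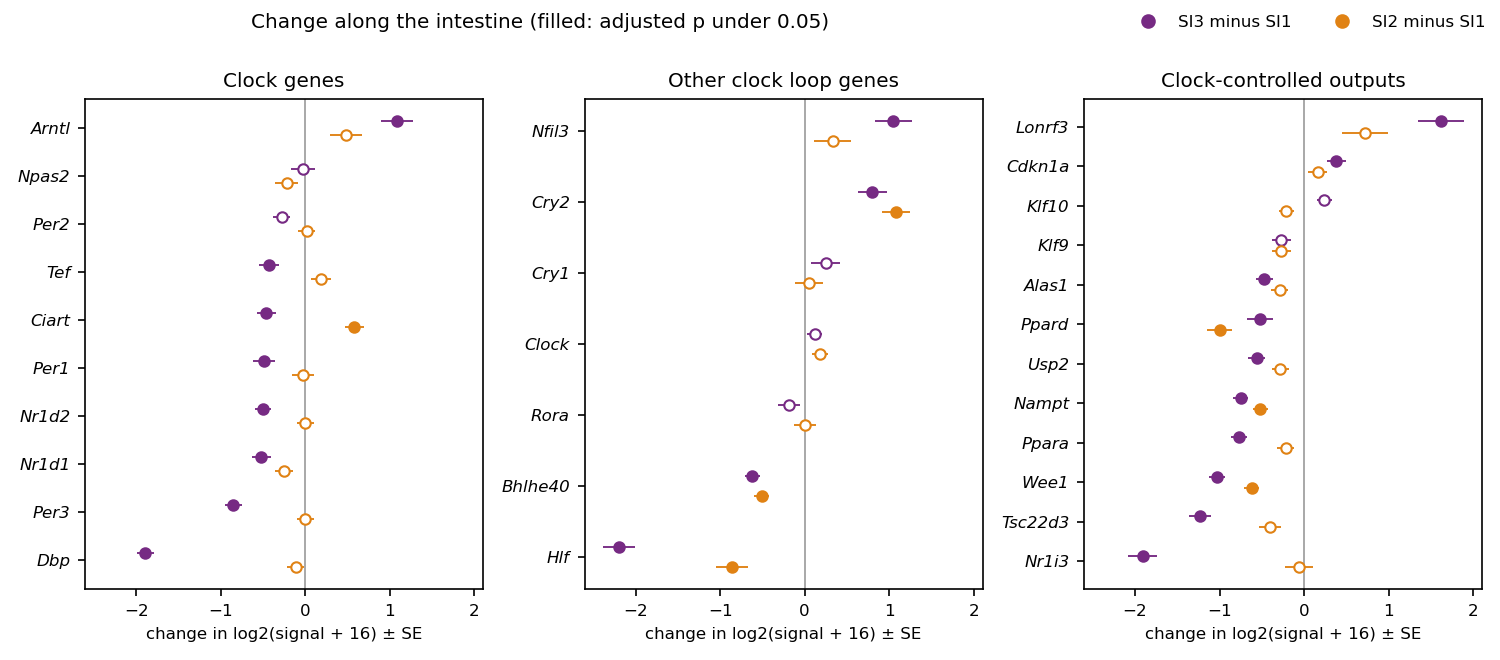
Change in log2(signal + 16) ± SE from limma for the clock genes, the other tested loop genes and the tested clock-controlled outputs, SI3 minus SI1 and SI2 minus SI1, with filled points at adjusted p under 0.05. Dbp, Hlf and Nr1i3 lie farthest left and Arntl, Nfil3 and Lonrf3 farthest right in SI3 minus SI1, and most clock genes lie near 0 in SI2 minus SI1.

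Genes known from mouse tissues to be driven by the clock fell more often than they rose. Of 18 such outputs 12 were tested, of which 8 fell, 2 rose and 2 did not pass in SI3 against SI1 (limma), with a median of -0.54. Over all probe sets tested, 19.2% fell and 25.0% rose in this comparison. Wee1, the cell-cycle kinase under E-box control, had 368.2, 546.8 and 338.5 in SI3, against 800.2, 1085.7 and 709.1 in SI1, and fell by 1.03 (SE 0.09, limma adjusted p = 0.00021). Usp2, a ubiquitin protease with a strong daily rhythm, fell by 0.56 (limma adjusted p = 0.0046), and Nampt, of NAD synthesis, by 0.75 (adjusted p = 0.000692). Nr1i3 (CAR), a xenobiotic receptor, fell by 1.91 (limma adjusted p = 0.000212). Tsc22d3, Alas1, Ppara and Ppard also fell, by 1.23, 0.47, 0.77 and 0.52. Lonrf3 rose by 1.62 (limma adjusted p = 0.00289) and Cdkn1a, the cell-cycle inhibitor p21, by 0.38 (adjusted p = 0.0271).

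Most enzymes that modify clock proteins did not pass the test. All 10 with a probe set were tested, of which 2 rose, 1 fell and 7 did not pass in SI3 against SI1 (limma), with a median of 0.06. Csnk2a1, a catalytic subunit of casein kinase 2, rose by 1.04 (limma adjusted p = 0.000127) and Fbxl21, a ubiquitin ligase subunit for cryptochromes, by 0.80 (adjusted p = 0.00635). Gsk3b, a kinase of several clock proteins, fell by 1.01 (limma adjusted p = 0.00031). Of 10 transport and lipid genes with a known daily rhythm in rodent gut, 7 fell, 1 rose and 2 did not pass, with a median of -0.98. The shares over all probe sets tested were 19.2% falling and 25.0% rising. The fructose transporter Slc2a5 fell by 3.13 (limma adjusted p = 2.45e-05) and the drug exporter Abcb1a rose by 1.06 (adjusted p = 0.000167).

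Markers of other cells also differed between these segments. The leukocyte markers, of which 6 of 7 tested fell and 1 rose in SI3 against SI1, summed to between 3483.9 and 3918.7 in SI3 and between 8379.3 and 8744.5 in SI1. Csf1r was the brightest of them in SI1, with a mean of 4324.9, against 1071.7 in SI3. The riser was Ms4a1, with means of 487.0 in SI3 and 149.0 in SI1 (limma adjusted p = 0.00076), so the sum hides opposite changes. Fibroblast and stroma markers, of which 4 of 5 fell, summed to between 1577.1 and 1952.9 in SI3 and between 5412.2 and 5964.7 in SI1. Smooth muscle markers, of which 3 of 7 fell, summed to between 3334.2 and 3868.7 in SI3 and between 4602.8 and 5017.3 in SI1. All 7 exocrine pancreas markers fell. Epithelial markers, 3 of 8 up and 2 of 8 down, overlapped in their sums. Of 2 adipocyte markers tested, Adipoq rose by 2.69 (limma adjusted p = 7.87e-05) and Cidec fell by 1.43 (adjusted p = 0.00113). Their mean signals in SI1 were 34.8 for Adipoq and 2187.4 for Cidec, so this list gave no single reading of adipocytes. Ret, the 1 tested marker of enteric neurons and glia, rose by 0.88 (limma adjusted p = 0.0249). Some marker signals were very low, down to 1.4 for S100b, and the part of these cells in the clock genes' change was not tested.

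Across diets, 6 of the 10 clock genes had their highest signal in the HF-OO array of all 3 segments: Dbp, Tef, Per2, Per3, Nr1d2 and Ciart. Over all probe sets tested 4.24% were highest in HF-OO in all 3 segments, and 4.09% were lowest. This count was chosen after the values had been seen. It was 5 after centring each array on its median and 5 with the mean of all probe sets of a gene. Of the 10 further probe sets tested, 4 were highest in HF-OO in all 3 segments. The second probe set of Nr1d2 was lowest in HF-OO in SI2, with 455.0, against 631.9 in HF-PO and 586.3 in HF-SO. Further ones of Tef, Per2 and Per3 also did not keep the order in every segment. With 1 array per diet and segment no test was made, the 3 segments of a diet share their mice, and the 10 genes belong to 1 loop, so the values describe these pools.

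Ciart was higher in HF-OO than in either other diet in every segment. It had 197.6, 308.6 and 168.7 in the HF-OO arrays of SI1, SI2 and SI3, against 113.0, 185.6 and 66.8 in HF-PO and 113.9, 164.9 and 74.4 in HF-SO. HF-OO was above both other diets by at least 1.5-fold in each segment, with ratios between 1.66 and 2.52 to HF-PO and between 1.74 and 2.27 to HF-SO. Of 22519 probe sets, 1 (0.00444%) was set apart in this way in all 3 segments, and it was this one. With a pseudocount of 64 in place of 16, Ciart was set apart in 1 segment only. No other clock gene was set apart upward in HF-OO in any segment, so 1 of the 10 genes was in at least 1 segment, beside 1.97% of all probe sets, and 3 of 30 gene and segment combinations were.

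Dbp ran in the order HF-OO, HF-PO, HF-SO in every segment. In SI1 it had 3299.6 in HF-OO, against 2274.4 in HF-PO and 1709.5 in HF-SO. In SI3, where the gene was low, it had 777.3 in HF-OO, against 644.4 and 480.2. The ratio of HF-OO to HF-SO lay between 1.62 and 1.93 and that to HF-PO between 1.21 and 1.49. Its second probe set was likewise highest in HF-OO in all 3 segments. Lowest in HF-SO in all 3 segments were 3.26% of all probe sets.

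Per2 and Per3 had a similar spread between the pools. Per2 was 1.35 to 1.42 times as high in HF-OO as in HF-PO and 1.29 to 1.71 times as high as in HF-SO. Per3 was 1.23 to 1.52 times and 1.30 to 1.69 times as high. For Tef the ranges were 1.23 to 1.52 and 1.19 to 1.48, and for Nr1d2, the REV-ERB beta gene, 1.02 to 1.29 and 1.11 to 1.39. The smallest of these gaps was that of Nr1d2 in SI2 (3961.6 in HF-OO, against 3889.6 in HF-PO). With 1 array per diet and segment, there is no spread within a diet to set it against. Per1 and Nr1d1 had no fixed order: in SI1 both were highest in HF-SO, Per1 with 454.5 and Nr1d1 with 1403.1.

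Arntl and Npas2, the activators, were highest in HF-OO in 0 of the 3 segments by their brightest probe sets, with no fixed order of the diets. Arntl had 244.6 and 389.7 in the HF-OO arrays of SI1 and SI2, against 333.0 and 560.0 in HF-PO and 521.4 and 550.4 in HF-SO, the lowest of the diets in both segments. In SI3 it had 749.0 in HF-OO, between 820.5 in HF-PO and 725.0 in HF-SO. In SI1 the HF-SO array was at least 1.5-fold above both others, as it was for 0.924% of all probe sets. Npas2 was highest in HF-PO in all 3 segments, as were 4.77% of all probe sets, and lowest in HF-OO in SI2 and SI3. In SI3 it had 362.2 in HF-OO, against 601.7 in HF-PO and 540.8 in HF-SO. In SI1 the Npas2 signals lay close together, with 508.2 in HF-PO, 499.2 in HF-OO and 494.6 in HF-SO. The second probe set of Npas2 was likewise lowest in HF-OO in SI2 and SI3. In SI1, however, it was lowest in HF-PO, with 153.3, against 206.0 in HF-OO and 244.3 in HF-SO. The second probe set of Arntl was highest in HF-OO in SI1, with 119.6, against 89.1 in HF-PO and 105.6 in HF-SO.

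**Figure D4:**
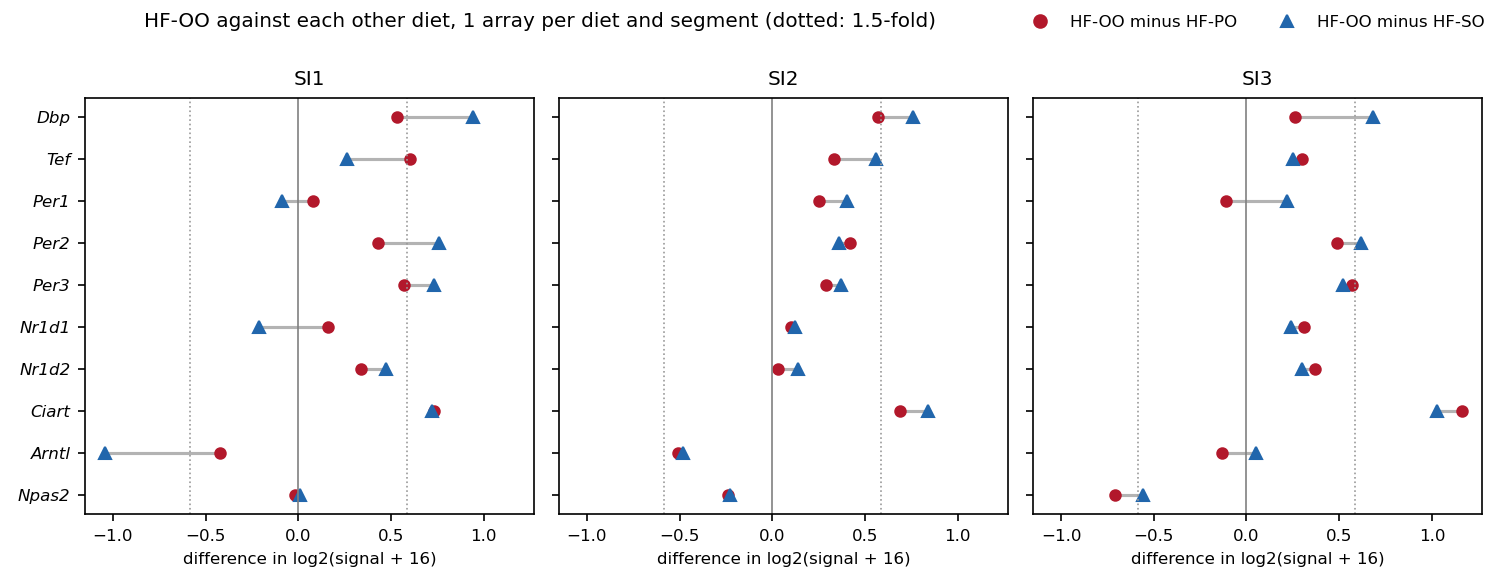
Difference in log2(signal + 16) between the HF-OO array and each of the other diets for the 10 clock genes in each segment, from 1 array per diet and segment, with dotted lines at 1.5-fold. Ciart lies beyond 1.5-fold against both diets in every segment, and Arntl lies left of 0 in SI1 and SI2.

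Counted by pairs of diets, HF-SO was at least 1.5-fold below HF-OO for 4 clock genes in SI1 (2.37% of all probe sets tested), 2 in SI2 (2.79%) and 3 in SI3 (2.27%). For 2 of them, Dbp and Ciart, this held in all 3 segments, as it did for 0.0444% of all probe sets. HF-PO was at least 1.5-fold below HF-OO for 2 clock genes in SI1 (2.52%), 1 in SI2 (3.57%) and 1 in SI3 (3.77%), and Ciart was the 1 gene below in all 3 segments (0.0799%). Both counts use the same HF-OO arrays. The other direction held for Arntl in SI1, 1.5-fold higher in HF-SO than in HF-OO (2.8%), and for Npas2 in SI3, higher in HF-PO than in HF-OO (3.07%). HF-PO and HF-SO differed by 1.5-fold for 1 clock gene, Arntl in SI1, where HF-PO was the lower one (3.54%).

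A summary over each list set the clock genes beside the tissue markers. The median log2 difference of a diet from the mean of the other diets was 0.33 for HF-OO over the 10 clock genes, -0.12 for HF-PO and -0.17 for HF-SO. For HF-OO it was 0.04 over epithelial, 0.05 over smooth muscle, -0.19 over leukocyte, -0.10 over stroma, -0.21 over exocrine pancreas, -0.15 over adipocyte, -0.04 over proximal and 0.18 over distal markers. Some marker lists departed by more in another diet: distal markers by -0.53 in HF-PO and 0.42 in HF-SO, adipocyte markers by 0.40 and exocrine pancreas markers by 0.34 in HF-PO. The distal list has 3 tested genes and includes segments where they were dim. In SI2, Slc10a2 had 3.2, 45.7 and 88.0 and Fgf15 had 21.4, 60.2 and 132.5. Of the adipocyte list 2 genes were tested, and they changed in opposite directions in SI3 against SI1. The part of the marked cells in the clock genes' values was not tested. Of the other tested loop genes, 0 of 7 were highest in HF-OO in all 3 segments. Of the outputs, 2 of 12 were, Wee1 and Usp2. The median departure of HF-OO was 0.0 over these other loop genes and 0.04 over the outputs. Usp2 had 2650.0, 2247.4 and 1587.3 in the HF-OO arrays of SI1, SI2 and SI3, against 1880.3, 1505.4 and 1432.4 in HF-PO and 1906.3, 1559.2 and 1285.1 in HF-SO. Hlf was highest in HF-OO in SI1 and SI2 (541.6 and 264.1), and in SI3, where the gene was low, it was highest in HF-PO (82.7).

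Dbp served as the yardstick for likeness, each gene taken as its departure from the mean of its segment over the 9 arrays. Among the clock genes the correlation with Dbp was 0.94 for Per2, 0.89 for Per3, 0.82 for Ciart, 0.81 for Nr1d2, 0.70 for Tef, 0.53 for Per1 and 0.10 for Nr1d1. It was -0.48 for Npas2 and -0.80 for Arntl. Genes outside the 10 were compared if their diet means spanned at least 1.5-fold, which left 265. Of these Wee1 was the most like Dbp, with a correlation of 0.92, and its mean signal over the segments was 780.1 in HF-OO, against 576.7 in HF-PO and 487.6 in HF-SO. Traip (0.902), Mamld1 (0.88), Abca1 (0.833), Vmn2r26 (0.822) and Igkv15-103 (0.813) came next. S1pr4 (-0.924), Bcdin3d (-0.902), Spindoc (-0.883), Polh (-0.875), E230016M11Rik (-0.874) and Herc3 (-0.873) were the least like it. The 9 points of each correlation come from 3 sets of mice and share their arrays, so the values are descriptions.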

How the data were processed

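Scraped mucosa of 3 intestinal segments was measured in 3 diet pools of 6 mice, 9 arrays in all. The authors deposited 1 linear signal intensity for each probe set and array, and the submitters' processing notes name MAS5 without a version. The trimmed mean of each array is 500.0, and this scaling was kept. Of 45101 probe sets, 64 controls were left out. The platform annotation gave 34945 probe sets 1 gene symbol, 932 several and 9160 none, and 34741 of the first were found in a RefSeq gene table.

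A pseudocount of 16 was added before taking log2. Tests covered the 22519 probe sets with a mean at or above the median, 6.80. The segment model was fitted with limma 3.58.1 under R 4.3.3 (segment and diet pool as terms, two-sided moderated tests, Benjamini-Hochberg adjustment, adjusted p under 0.05), and the model was first tested on simulated data. The pool is a block because its 3 segments come from the same mice. Departures from segment means correlated with r between -0.05 and 0.15 within pools and between -0.13 and 0.05 across pools. Nothing separates single animals. With the block, p-values measure how much the segment changes vary between pools that also differ in diet. Diets have 1 array per segment and no test: a gene was set apart in a diet when it lay at least 1.5-fold from both others in 1 direction. A gene with several probe sets was read from its brightest one.

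The genes, the lists and the rule for naming (all 10 genes, all their probe sets, members of the lists, and the 6 genes most and least like Dbp) were chosen with earlier results of these data known. Alternatives covered the pseudocount, the filter, the scaling, the block, each pool left out, the choice of probe set and the fold threshold. Promoters are from RefSeq's GRCm38.p6. Counts and plots were made in Python 3.11.15 with pandas 2.3.3, numpy 2.4.6 and matplotlib 3.10.9. Detection calls were not used here.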

Additional observations from a re-analysis of the deposited data

Results flagged for a closer look

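Npas2 changed in opposite directions between the diet pools in SI3 against SI1. Its log2(signal + 16) was higher in SI3 by 0.24 in the HF-PO pool and by 0.12 in the HF-SO pool, and the difference was -0.45 in the HF-OO pool. Each value compares 1 array with 1 array, and the difference was not tested.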

How the results depend on the processing

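Of 300 recomputed segment changes of the clock genes, 251 kept direction and call, 32 lost the call, 6 gained it and 11 turned direction. Those that turned were uncalled. In SI2 minus SI1, leaving out 1 pool gave between -0.14 and 0.11 for Per1, -0.11 and 0.08 for Per2, -0.07 and 0.10 for Per3 and -0.06 and 0.10 for Nr1d2. Nr1d2 became 0.01 with quantile normalization, and the mean of all probe sets gave -0.05 for Per2, 0.17 for Per3 and 0.25 for Nr1d2. In SI3 minus SI1, Npas2 became 0.01 with median centring, lay between -0.16 (without HF-PO) and 0.18 (without HF-OO) with 1 pool left out, and became 0.18 with the mean of its probe sets. With no filter on low signal, which adjusts over more probe sets, limma called 604 probe sets in SI2 against SI1 (3375 as reported), 1681 in SI3 against SI2 (4787) and 4666 in the F test (9154), and 4, 0 and 3 clock genes in SI3 against SI1, SI2 against SI1 and SI3 against SI2. Leaving out 1 pool at a time, which leaves fewer arrays, gave between 5551 and 7581 probe sets in SI3 against SI1 (9969 as reported), 537 and 811 in SI2 against SI1, 1317 and 2394 in SI3 against SI2, and 3680 and 5769 in the F test, with between 4 and 7, 0 and 0, and 3 and 5 clock genes. Without the diet pool as a block, 0 clock genes were called in SI2 against SI1 and 6 in SI3 against SI1, and with the mean of all probe sets 2 were called in SI2 against SI1. Per2 passed with quantile normalization (limma adjusted p = 0.0284 in SI3 against SI1 and 0.0486 in SI3 against SI2), and Arntl passed in SI3 against SI2 with a pseudocount of 64 (adjusted p = 0.0413), with median centring (0.0469) and without the HF-SO pool (0.0464). The count of genes 1.5-fold lower in HF-PO than in HF-OO in all 3 segments was 1 as reported and 0 with a pseudocount of 64. Gene and segment combinations set apart in HF-OO numbered 3 as reported, 1 with a 2-fold threshold and 1 with a pseudocount of 64. The causes of the other shifts were not tested. The 9 arrays of pooled RNA limit the precision of every segment change.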

Other observations

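The glucocorticoid list holds genes that respond to these hormones, which also induce Per1, and the gene of their receptor. Of 6 tested, 1 rose in SI3 against SI1, and it was the receptor gene, Nr3c1 (by 0.66, limma adjusted p = 0.00407). Of the responsive genes, 1 fell (Tsc22d3) and 4 did not pass. Fkbp5, a chaperone of the receptor, had 1204.2, 1220.9 and 1195.0 in the HF-OO arrays of SI1, SI2 and SI3, against 437.7, 399.6 and 647.6 in HF-PO and 869.5, 717.6 and 1288.9 in HF-SO, so HF-PO was the lowest in every segment. Per1 itself had 425.8, 489.4 and 308.3 in HF-OO, against 402.3, 408.2 and 334.1 in HF-PO and 454.5, 366.9 and 262.9 in HF-SO. Of 7 genes listed for chaperones and temperature, 1 rose in SI3 against SI1 (Hspa5, by 0.32, limma adjusted p = 0.0285) and 6 did not pass. No tested gene of either list was highest or lowest in HF-OO in all 3 segments. Zbtb16, a glucocorticoid-induced gene under the filter on low signal, had 211.4, 116.8 and 90.9 in the HF-OO arrays of SI1, SI2 and SI3, against 47.4, 44.9 and 37.6 in HF-PO and 78.7, 83.5 and 76.7 in HF-SO. No other gene of the glucocorticoid list was lowest in HF-PO in all 3 segments. Nr3c1 was highest in HF-PO in all 3, with 4150.3, 5853.5 and 6276.3. Dusp1 was highest in HF-PO in SI2 and SI3, and Tsc22d3 in SI1 and SI3. Sgk1 and Klf9 were lowest in HF-PO in 2 segments, and Sgk1 was highest there in SI3.

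Nfil3, the factor that opposes Dbp at D-boxes, was highest in HF-PO in all 3 segments. It had 159.8, 207.4 and 483.8 in the HF-PO arrays of SI1, SI2 and SI3, against 121.2, 112.1 and 228.2 in HF-OO and 109.0, 192.8 and 205.1 in HF-SO.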
